A study of Rattus norvegicus with 9 samples.

Results

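This comparison sets Sertoli cells of 60-day-old rats against Sertoli cells of 5-day-old rats, the adult and the neonatal end points of a series that also holds cells of 12 days. All arrays labelled with these ages were used, 6 of the 9 arrays of the series, 3 for each age. Every array held RNA of cells from the testis that had been grown for 4 days with a defined growth factor medium. At both ages the cells then received oFSH, a preparation of follicle-stimulating hormone, at 50 ng/ml together with testosterone at 1e-07 M in pulses for 11 h. No culture without hormones was among them, so an age difference here is one between hormone-treated cells. The strain, the number of animals behind a culture and the purity of the cells are not given in the sources used here. Nor is it said whether replicates are separate cultures, so p-values measure only the spread between these arrays, which may be technical.

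Sertoli cells are the somatic cells of the seminiferous tubule. Early in life they divide and secrete anti-Müllerian hormone. Around puberty they stop dividing, join into the blood-testis barrier and take over the nursing of meiotic and post-meiotic germ cells, which they feed with lactate, iron, vitamins and lipids. In the rat testis at 5 days the tubule holds Sertoli cells and early germ cells, and at 60 days it holds germ cells of all stages.

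Levels are given as the log2 signal of a probe minus the 75th percentile of its array, so that 0 is the 75th percentile and a step of 1 is 2-fold. Differences are log2 values at 60 days minus 5 days, from a linear model with the replicate number as a block, and a gene rose or fell when its Benjamini-Hochberg adjusted p was under 0.05. Arrays of the same age correlated at 0.941 to 0.970 over the genes tested, and arrays of different ages at 0.775 to 0.809. On any one array 53.5% to 63.0% of probes exceeded background clearly. The replicate number is also the slide, and replicate 1 was scanned and quantified with older equipment than replicates 2 and 3. Arrays of an age had the same place on every slide, so place and age cannot be told apart. Precision is limited by having 3 arrays for an age. In such bulk samples fewer cells of a type and less RNA per cell cannot be told apart.

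Genes differed between the ages in nearly even numbers each way. Of 22163 genes tested, 9985 (45.1%) were called, of which 4776 (21.5%) rose and 5209 (23.5%) fell. The median size of a called change was 1.88 on the log2 scale against a median SE of 0.34. Changes of at least 8-fold were found for 1306 genes that rose (5.89%) and 1265 that fell (5.71%). All 60-day arrays lay above all 5-day arrays for 22.5% of genes, and below them for 25.2%. At 5 days 2192 of the tested genes were well above background on no array, and 1690 of these rose (77.1%). At 60 days 748 were well above background on no array, and 718 of these fell (96%). A gene of this kind entered the test only through the age at which it is high, so its fold is given as a bound. Of 10 spike-in RNAs 6 could be used, and they stood 0.14 to 0.40 higher at 60 days (median 0.29) as means over the slides. On the slides of replicates 1 to 3 their shift was 1.04, -0.28 and 0.05, so that the slide of replicate 1 carries it. Scaled to the spike-ins, all differences lie 0.34 lower and 6135 genes were called. Another background correction, normexp, with 50 added to every corrected intensity, was possible for the slides of replicates 1 and 3 only. It gave 2958 calls, against 7323 with the reported signal on the same slides. The 75th percentile of the reported signal was 150 to 327 on these 5-day and 60-day arrays, so the added 50 shrinks differences of dim genes. Fewer calls and smaller medians with normexp therefore cannot be laid to the background correction alone. Directions below are therefore relative to the other genes of an array.

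**Figure D1:**
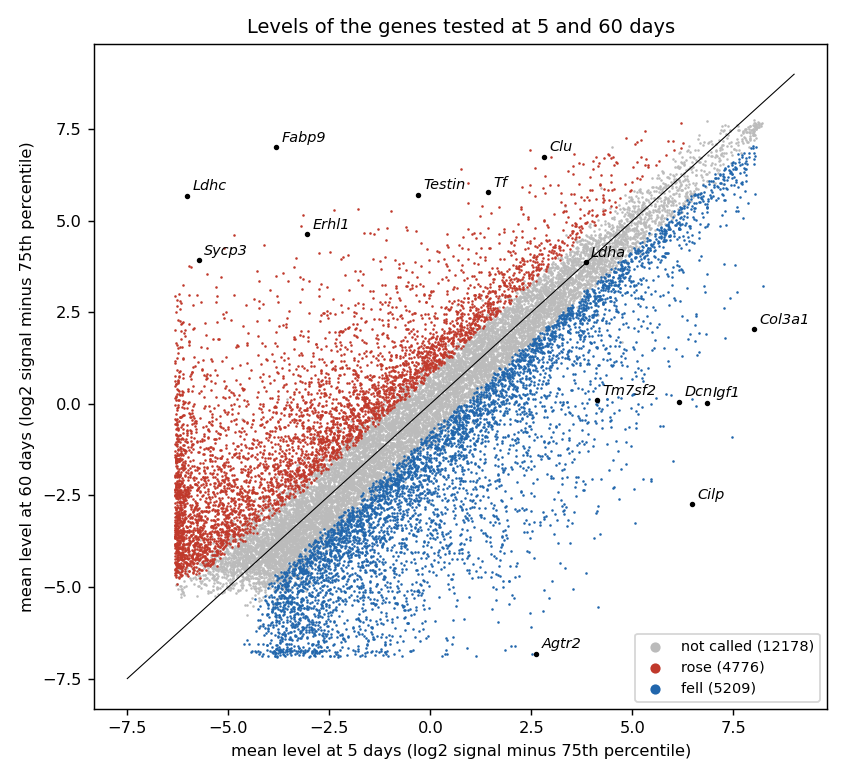
Mean level of each of the 22163 genes tested on the 3 arrays of 5 days (x axis) and of 60 days (y axis), as log2 signal minus the 75th percentile, with the 4776 genes that rose in red, the 5209 that fell in blue and the rest in grey. Ldhc and Fabp9 stand at the upper left and Cilp and Agtr2 at the lower right, and the vertical and horizontal edges of points are genes near background at one age.

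Read by gene lists, the germ cell lists and the list of Sertoli cell genes lay above 0, and the lists of fibrillar matrix, peritubular cells, growth factors of the IGF system, immature Sertoli cells and sterol synthesis lay below. Over all genes the median difference was -0.08, and 21.5% rose and 23.5% fell. The counts of each list below are to be set beside these shares. The medians ran from -4.21 for fibrillar matrix to 5.72 for spermatocytes.

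**Figure D2:**
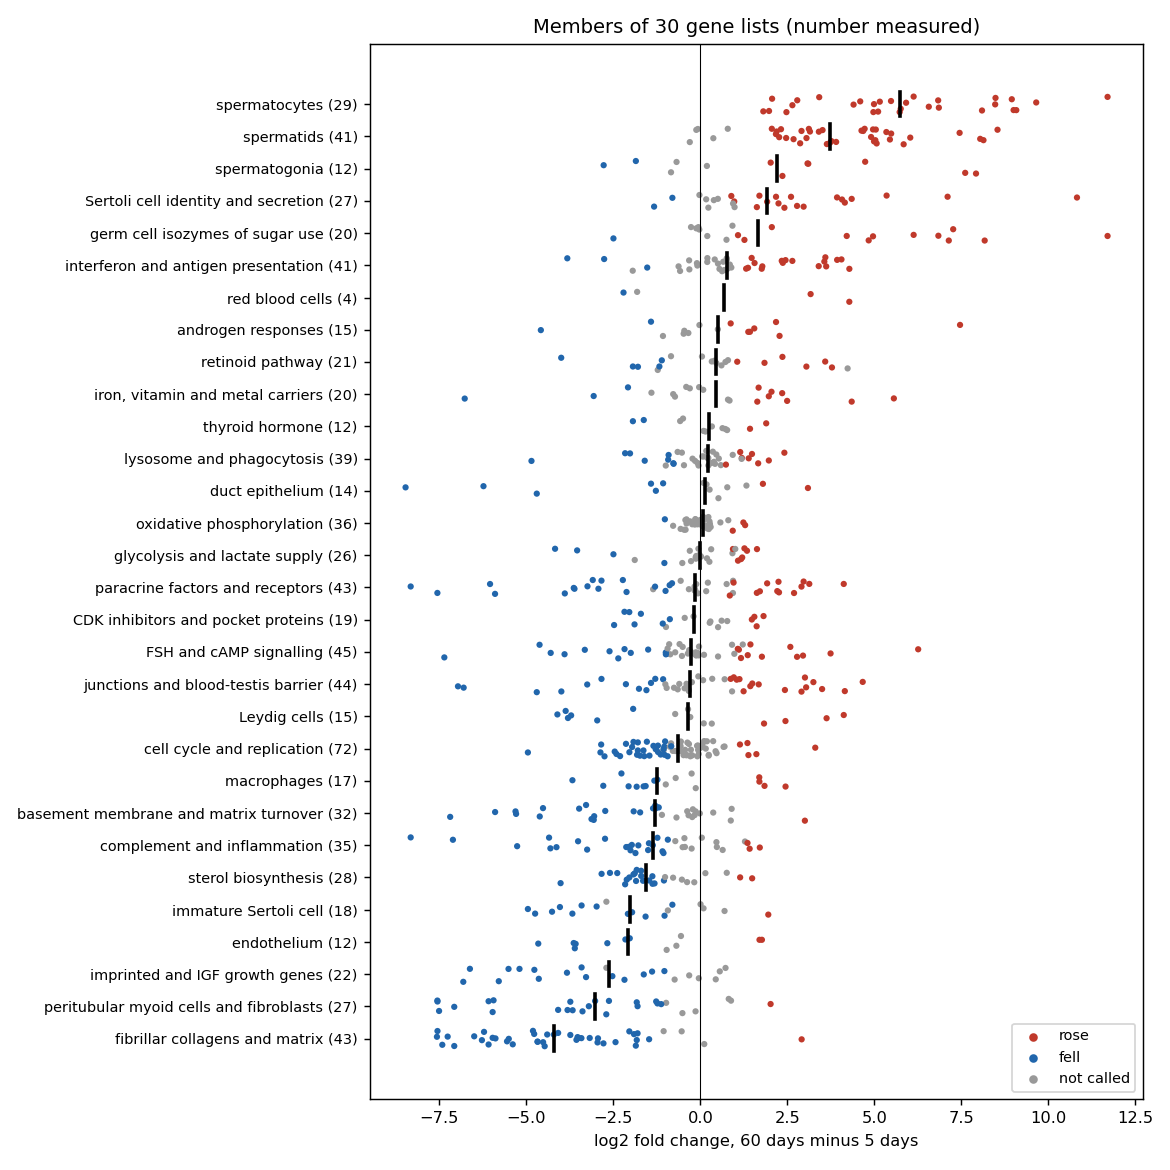
Log2 difference between 60 and 5 days (x axis) of the measured members of 30 gene lists, ordered by median, which the black bar marks; red members rose, blue members fell and grey members were not called. In the list of fibrillar collagens and matrix 39 of 43 measured members fell, and in that of spermatocytes all 29 measured members rose, 24 of which had passed the filter through the 60-day arrays alone.

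Among genes that define Sertoli cells, secreted carriers and barrier genes rose by several log2 units, and Sox9, Dmrt1 and Wt1 rose by less. Of 27 measured members of this list 18 rose and 2 fell, where 21.5% and 23.5% of all genes did. The median was 1.92, and 4 had passed the filter through the 60-day arrays alone. All 27 were well above background on all 60-day arrays, and 21 on all 5-day arrays. The summed signal of the list was 263 to 428 times the 75th percentile on the 5-day arrays and 711 to 854 times on the 60-day arrays. This sum counts Fabp9, which spermatids also make and which had the largest rise of the list (10.82). Its part in the sum was not set apart.

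Transferrin (Tf), the iron carrier that Sertoli cells hand to germ cells, stood at 1.55, 1.25 and 1.5 on the 5-day arrays of replicates 1 to 3 and at 5.74, 5.88 and 5.72 on the 60-day arrays. The groups were far apart and each was tight, and the rise was 4.35, SE 0.28, adjusted p = 3.61e-06, or 20.3-fold. Clusterin (Clu), a secreted chaperone and a main product of the adult cell, stood at 2.61, 2.87 and 2.98 and at 6.83, 6.74 and 6.66, 15.2-fold higher (adjusted p = 6.82e-06). Androgen-binding protein (Shbg) rose from -0.95, -0.94 and -0.67 to 2.78, 3.60 and 3.28 (4.07, SE 0.30, adjusted p = 7.40e-06). Testin, which is not on the list, a Sertoli cell protein of the junctions with germ cells, was at -0.11, -0.78 and -0.07 and rose to 5.95, 5.61 and 5.56 (6.02, SE 0.28, adjusted p = 1.13e-06). It ranked among the 12 largest rises of genes measured on all 6 arrays. Cst12, a cystatin of the Sertoli cell, and Fabp9, a fatty acid binding protein of the testis, were well above background on 2 and 1 of the 5-day arrays. Cst12 stood at -2.62, -4.01 and -3.46 and then at 3.85, 3.50 and 3.86, and Fabp9 at -3.18, -4.22 and -4.04 and then at 7.60, 6.79 and 6.62, differences of 7.10 (SE 0.34) and 10.82 (SE 0.37). Fabp9 is also made by spermatids.

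Among transcription factors on the list of Sertoli cell genes, Sox9, Dmrt1, Gata1, Wt1 and Gata4 rose by differing amounts, and Nr5a1 and Lhx2 showed no called change. Sox9, a factor of testis determination, stood at 2.12, 2.48 and 1.39 at 5 days and at 4.34, 4.87 and 4.02 at 60 days, a rise of 2.41, SE 0.27, adjusted p = 7.69e-05. Dmrt1 rose from -3.34, -3.38 and -2.82 to -1.16, -0.63 and 0.07 (2.60, SE 0.35, adjusted p = 2.96e-04), and it is also expressed in spermatogonia. Gata1, which appears in Sertoli cells before puberty, was well above background on no 5-day array and stood at -0.69, 0.03 and -0.75 at 60 days, at least 11.7-fold higher (adjusted p = 5.12e-06). Wt1, needed to keep Sertoli cell identity, rose by 1.70 (adjusted p = 0.00183) and Gata4 by 0.89 (adjusted p = 0.0386). Neither call held on the spike-in scale, where the adjusted p was 0.122 for Wt1 and 0.603 for Gata4. Without the replicate block they were 0.0545 and 0.1. The Gata4 call was also lost without replicate 1, 2 or 3 (adjusted p 0.0803 to 0.163). Nr5a1, a nuclear receptor of steroid-making cells and of Sertoli cells, stood at -4.20, -3.26 and -2.12 and -3.78, -2.52 and -2.12 (adjusted p = 0.453). Lhx2, a homeodomain factor, was well above background on no 5-day array and stood at -2.83, -4.37 and -3.92 at 60 days (adjusted p = 0.0602).

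Among hormones of the cell and their receptors, Fshr, Inha and Inhbb rose and Amh fell. Fshr, the receptor of follicle-stimulating hormone, passed the background threshold on 1 array of the 5-day cells (-4.73, -5.51 and -3.53) and on each array of the 60-day cells (-2.14, -1.49 and -1.82). The rise was 2.78, SE 0.42, adjusted p = 5.30e-04, and 2.15 without replicate 2. Inha, the alpha subunit of inhibin, the hormone by which the testis lowers pituitary FSH, rose from 4.25, 3.71 and 3.90 to 6.18, 6.24 and 6.18 (2.24, SE 0.28, adjusted p = 1.66e-04). Inhbb, a beta subunit of inhibin and activin, rose by 1.62 (adjusted p = 0.00231; 0.148 on the spike-in scale), and the lowest of its 3 probes stood at -0.11. Amh (anti-Müllerian hormone), a product of the immature cell, lay below the 75th percentile at both ages, at -1.63, -1.73 and -1.79 and at -2.60, -2.10 and -2.86. It fell by 0.81 with an adjusted p of 0.0431, a call that was lost with no replicate block (adjusted p = 0.0641), on the spike-in scale (0.204) and without any of replicates 1, 2 and 3 (adjusted p 0.0985 to 0.256).

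**Figure D3:**
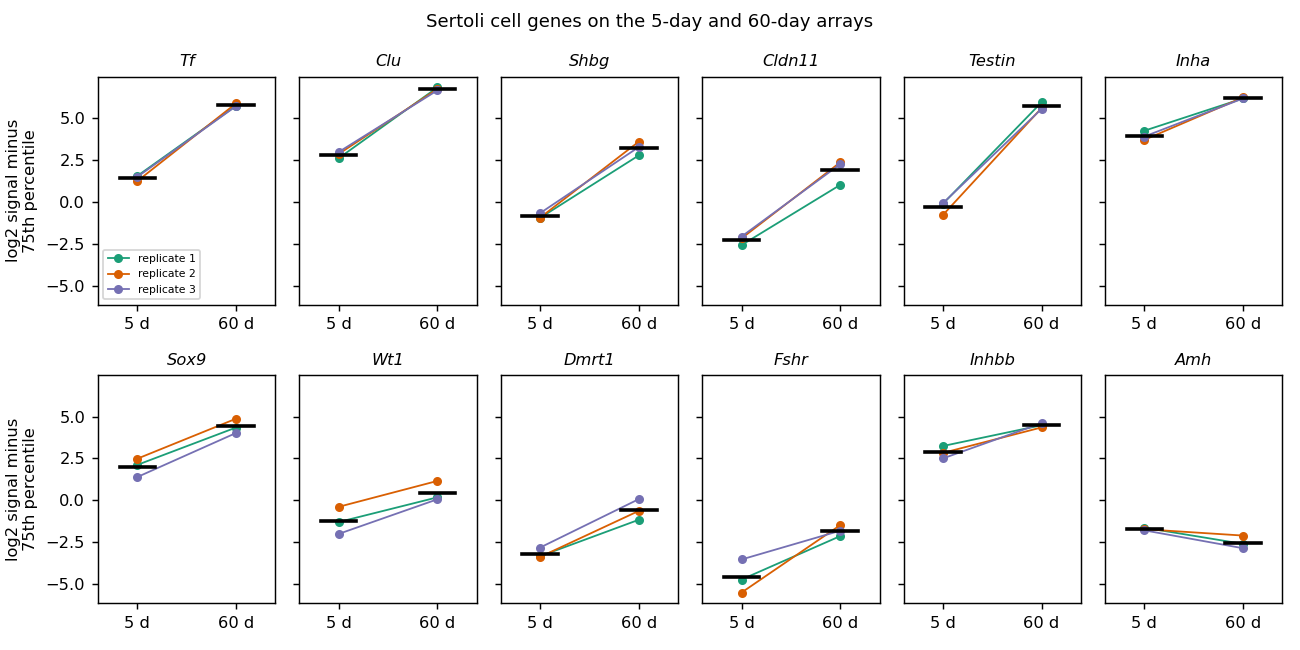
Levels of 12 Sertoli cell genes (log2 signal minus the 75th percentile, y axis) on the 5-day and 60-day arrays, one coloured line per replicate number, black bars for the means. The means of Tf, Clu, Shbg, Cldn11 and Testin lie 3.92 or more apart, and those of Amh differ by -0.81.

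Genes of the immature Sertoli cell were mostly lower at 60 days. Of 18 measured members 12 fell and 1 rose, with a median of -2.02. Of the 18, 2 had passed the filter through the 5-day arrays alone. Other lists share 8 of them, so the falls of these lists are not separate results. Id1 and Id3, inhibitors of basic helix-loop-helix factors that mark undifferentiated cells, stood at 2.81, 1.95 and 2.35 and 5.72, 5.05 and 4.24 at 5 days. At 60 days they stood at -1.28, -1.63 and -1.02 and 1.06, 0.13 and -0.44, differences of -3.68 (SE 0.31) and -4.75 (SE 0.30). Mdk, the growth factor midkine, fell from 6.27, 5.71 and 5.39 to 2.19, 1.33 and 1.07 (-4.26, SE 0.33, adjusted p = 9.05e-06). Cited1, a transcriptional coregulator, was the member that rose, by 1.95 (adjusted p = 3.87e-04; 0.0567 on the spike-in scale). Thra, the receptor through which thyroid hormone acts on Sertoli cell maturation, stood at -0.33, 1.13 and 2.09 and at 0.65, 1.39 and 1.12, with no called change (adjusted p = 0.892).

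Insulin-like growth factors and several of their binding proteins fell. Of 22 measured members of the list of imprinted and IGF growth genes 15 fell and 0 rose (median -2.62), and of all 25 members on the array, with no filter on dim probes, 16 fell. Igf1 stood at 7.34, 6.97 and 6.22 at 5 days and at 0.90, -0.10 and -0.69 at 60 days (-6.81, SE 0.35, adjusted p = 1.56e-06). Its 3 probes ranged from -6.96 to -0.67, and 2 were called. Igf2, the fetal growth factor of the pair, fell from 4.97, 4.54 and 4.61 to 1.46, 1.02 and 1.41 (-3.41, SE 0.33, adjusted p = 3.49e-05). The binding proteins that hold these factors in the tissue also fell, Igfbp4 by 6.62, Igfbp5 by 5.79, Igfbp6 by 5.51 and Igfbp2 by 4.77 (SE 0.40, 0.30, 0.30 and 0.30). Igf2bp2, which binds the Igf2 messenger RNA, fell from 3.95, 3.96 and 3.82 to -0.64, -1.71 and -1.51. The ages overlapped for none of the 7 genes named here, but these were named mostly for the size of their change. Of all genes 25.2% lay lower at 60 days without overlap. Markers of fibroblasts, which also make such proteins, fell in the same arrays, as given below, and their part in these falls was not tested.

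More cell cycle genes fell than rose, while some usual marks of division showed no called change. Of 72 measured members 31 fell and 5 rose (median -0.65). Ccnd2, the D-type cyclin through which FSH drives Sertoli cell division, stood at 2.53, 3.78 and 2.63 and fell to -0.64, -1.95 and -3.33 (-4.96, SE 0.49, adjusted p = 4.18e-05; -5.85 without replicate 1). Ccnd3 fell by 2.87 (SE 0.41, adjusted p = 4.25e-04). Cdk1, the kinase of mitotic entry, stood at 4.84, 4.63 and 4.77 and at 2.89, 1.74 and 2.70 (-2.31, SE 0.30, adjusted p = 2.22e-04). Mki67 and Top2a, the usual marks of dividing cells, showed no called change. Mki67 stood at -1.15, -0.56 and -1.07 and 0.35, -0.13 and -0.92, and Top2a at 2.27, 2.00 and 2.37 and 1.67, 1.93 and 3.05, with adjusted p of 0.214 and 0.994. Tpx2, a spindle factor, rose from -0.80, -0.70 and -0.39 to 2.35, 2.85 and 2.81 (3.30, SE 0.39, adjusted p = 1.23e-04). Dividing and meiotic germ cells also express these genes, and germ cell markers rose in the same arrays, as given below. Their part in the cell cycle values was not tested.

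Inhibitors of the cycle did not move one way. Of 19 measured members 4 rose (21.1%) and 7 fell (36.8%), where 21.5% and 23.5% of all genes did. Cdkn1b, the p27 inhibitor linked to the end of Sertoli cell division, stood at 2.23, 2.74 and 3.19 and fell to 0.74, 0.49 and 1.25 (-1.89, SE 0.32, adjusted p = 0.00113). The other of its 2 probes gave -0.48 and was not called. Cdkn1c, an imprinted inhibitor of the same family, fell by 2.18 (adjusted p = 0.00181), and Cdkn2b by 1.71 (adjusted p = 0.00213). Cdkn1a, the p21 inhibitor, rose by 1.62 (adjusted p = 0.00172) and Rb1, the retinoblastoma protein, by 1.48 (adjusted p = 0.00224). On the spike-in scale their adjusted p were 0.15 and 0.21.

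Follicle-stimulating hormone acts through its receptor, adenylyl cyclase and cyclic AMP, which phosphodiesterases break down. Beside the rise of Fshr, the cyclases Adcy2, Adcy5 and Adcy6 fell and the phosphodiesterases Pde4b and Pde4d rose. Of 45 measured members of this list 11 rose (24.4%) and 13 fell (28.9%), near the 21.5% and 23.5% of all genes, with a median of -0.28. Of the 45, 6 had passed the filter through the 60-day arrays alone, and of the 37 measured at both ages 7 rose and 11 fell. The counts were 5 and 10 on the spike-in scale, 2 and 9 with normexp and 11 and 11 without replicate 1. Adcy2 stood at 5.51, 4.75 and 4.83 and fell to -2.38, -3.35 and -1.25 (-7.36, SE 0.45, adjusted p = 2.96e-06; -8.00 without replicate 3). Adcy5 fell by 4.30 (SE 0.42) and Adcy6 by 3.32 (SE 0.27). The soluble cyclase Adcy10, known from sperm, went the other way. It was well above background on no 5-day array and stood at 0.66, -0.10 and 0.51 at 60 days, at least 20.7-fold higher. Among phosphodiesterases, Pde4b rose from -5.34, -3.14 and -2.99 to -1.11, 0.31 and 0.55 (3.74, SE 0.48, adjusted p = 2.15e-04) and Pde4d from -2.72, -2.35 and -2.88 to -0.50, -0.15 and 0.45 (2.58, SE 0.32, adjusted p = 1.71e-04). The 4 probes of Pde4d ranged from -1.12 to 3.04, 3 were called, and none of these fell. The immediate early genes Fos and Egr1, which stimuli switch on within minutes, fell. Fos stood at 3.21, 2.89 and 4.04 and then at -2.00, -0.80 and -0.93 (-4.62, SE 0.40, adjusted p = 1.66e-05), and Egr1 at 5.12, 5.00 and 5.60 and then at 1.32, 0.91 and 1.78 (-3.90, SE 0.26, adjusted p = 4.49e-06). Crem, a cyclic AMP responsive factor with a testis form that drives spermatid genes, rose by 1.07 (adjusted p = 0.0124; 0.46 on the spike-in scale, 0.129 without replicate 2 and 0.093 without replicate 3).

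Among androgen response genes more rose than fell. Of 15 measured members 7 rose (46.7%) and 2 fell (13.3%), where 21.5% and 23.5% of all genes did (median 0.50). The counts were 3 and 2 on the spike-in scale, 2 and 0 with normexp and 4 and 2 without replicate 2 or 3. Rhox5, an androgen target of the mouse Sertoli cell, stood at -0.48, -0.79 and -1.23 and -0.62, -0.52 and 0.15 without a called change (adjusted p = 0.307). Tsx, a Sertoli cell gene of the X chromosome, rose from 4.21, 3.24 and 3.22 to 5.62, 5.81 and 5.76 (2.17, SE 0.32, adjusted p = 4.49e-04). Serpina5, a protease inhibitor, was at background at 5 days and at 2.73, 2.22 and 2.12 at 60 days, at least 83.1-fold higher (adjusted p = 8.67e-07).

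Junction genes moved in both directions. Of 44 measured members 16 rose (36.4%) and 12 fell (27.3%), where 21.5% and 23.5% of all genes did (median -0.29). The balance depended on the scale, with 8 that rose and 10 that fell on the spike-in scale, 8 and 7 with normexp and 13 and 13 without replicate 1. Cldn11, the claudin without which the blood-testis barrier does not form, stood at -2.57, -2.17 and -2.07 and rose to 1.02, 2.36 and 2.25 (4.15, SE 0.30, adjusted p = 7.17e-06). Cingulin (Cgn), a scaffold of tight junctions, rose from -3.48, -3.73 and -3.81 to 0.35, 1.54 and 1.08 (4.66, SE 0.37, adjusted p = 1.14e-05). F11r, a junctional adhesion molecule, rose from 0.11, 0.49 and 1.04 to 3.44, 4.27 and 4.42 (11.3-fold, adjusted p = 1.59e-05). Espn, which bundles actin in the junctions between Sertoli cells and germ cells, rose by 3.25 (adjusted p = 1.41e-04), and plakoglobin (Jup) by 3.00 (adjusted p = 1.90e-04). Occludin (Ocln) rose by 1.68 (adjusted p = 0.0037; 0.129 on the spike-in scale). Another claudin and epithelial cadherin fell. Cldn9 stood at 5.19, 4.23 and 4.11 and fell to -0.62, -2.83 and -3.43 (-6.80, SE 0.44, adjusted p = 3.59e-06), and Cdh1 went from 1.94, 1.41 and 1.1 to -2.03, -4.12 and -3.50 (-4.70, SE 0.40, adjusted p = 1.71e-05). Gja1, the main gap junction protein of the tubule, stood at 3.51, 3.22 and 2.71 and 2.88, 2.31 and 2.87 with no called change (adjusted p = 0.344).

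Enzymes of cholesterol synthesis fell along nearly the whole pathway. Of 28 measured members of the list 19 fell and 2 rose (median -1.56), and 27 of the 28 were measured at both ages. Among 18 enzymes described in pathway order 15 fell, from the first condensation (Acat2) to the late sterol steps. Acat2 stood at 5.92, 5.91 and 5.83 and fell to 3.44, 2.84 and 2.88 (-2.84, SE 0.29, adjusted p = 4.43e-05). Sqle, the squalene epoxidase, fell from 4.39, 4.40 and 4.53 to 2.04, 1.56 and 1.92 (-2.60, SE 0.26, adjusted p = 4.59e-05). Tm7sf2, a sterol reductase, fell furthest, from 4.26, 4.24 and 3.87 to 0.31, 0.21 and -0.20 (-4.02, SE 0.26, adjusted p = 3.69e-06, 16.2-fold). Pmvk, Fdft1 and Dhcr7 showed no called change, with adjusted p of 0.305, 0.64 and 0.207.

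**Figure D4:**
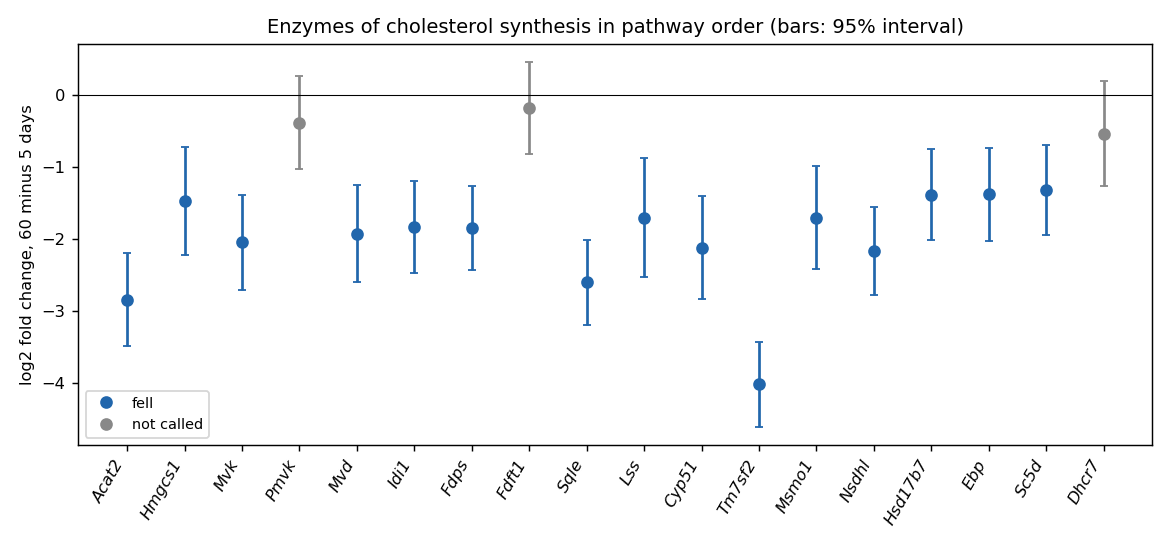
Log2 difference between 60 and 5 days (y axis) for 18 enzymes of cholesterol synthesis in pathway order, with 95% intervals. Of these, 15 fell (blue), and Pmvk, Fdft1 and Dhcr7 were not called (grey).

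Since these genes moved together, the 250 bases before their RefSeq starts (build GRCr8) were searched for the CCAAT box (letters CCAAT, either strand), the site of the factor NF-Y, which works beside the sterol-sensing factors in such promoters. It was found in 16 of the 20 promoters at hand from this list (80.0%) and in 34.3% of all 27457 promoters. Of the 16 genes 14 fell and 2 were not called. Acat2 and Cyp51, which also fell, held no box in their windows. Over the tested genes it was in 33.8% of those that fell, 37.8% of those that rose and 35.7% of those not called. Cell cycle promoters held it in 40 of 61 cases (65.6%), and of those 40 genes 12 fell, 25 were not called and 3 were not tested. A tie between the box and the fall was not tested. The box nearest to the start is shown in capitals for 3 enzymes, each window 5′ to 3′ on the strand of the gene, and reads ATTGG where it lies on the opposite strand. The windows are chr1:212789586-212789670 (minus strand) for Tm7sf2, chr2:176804857-176804941 (minus strand) for Fdps and chrX:155817255-155817339 (plus strand) for Nsdhl, where another box lies in the same window.
Tm7sf2: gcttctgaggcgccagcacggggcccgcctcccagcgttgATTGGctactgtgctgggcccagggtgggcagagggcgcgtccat
Fdps: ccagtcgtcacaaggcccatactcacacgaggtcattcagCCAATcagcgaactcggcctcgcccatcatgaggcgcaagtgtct
Nsdhl: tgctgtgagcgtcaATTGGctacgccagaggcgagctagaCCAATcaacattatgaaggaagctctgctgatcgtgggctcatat
Tm7sf2 fell by 4.02, Fdps by 1.85 and Nsdhl by 2.16. The sterol regulatory element known from the LDL receptor gene, searched as an exact string on both strands, was in 0 of the 20 promoters and in 0.0838% of all, which says only that these letters are not in the windows. A match is a description of these letters and not a measured site.

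Of 26 measured members of the list of glycolysis and lactate supply 7 rose (26.9%) and 4 fell (15.4%), where 21.5% and 23.5% of all genes did, with a median of -0.0045. The rises depended on the processing, with 0 that rose and 4 that fell on the spike-in scale, 1 and 1 with normexp, 3 and 4 with no replicate block, and 1 and 3 without replicate 2. Ldha stood at 3.82, 3.69 and 4.01 and 3.81, 3.87 and 3.90, Pgk1 at 3.77, 3.73 and 4.25 and 3.38, 3.93 and 4.37, and Gapdh at 5.21, 5.44 and 6.24 and 5.70, 5.75 and 6.21, with no called change. Ldhb, the heart-type subunit of lactate dehydrogenase, rose from 6.23, 5.89 and 5.92 to 7.16, 7.26 and 7.12 (1.17, SE 0.26, adjusted p = 0.00557). Its adjusted p was 0.393 on the spike-in scale, 0.0854 without replicate 2 and 0.063 without replicate 3. Slc16a1, a lactate transporter, rose by 1.62 (adjusted p = 0.00148; 0.146 on the spike-in scale). Aldoc, a brain-type aldolase, fell from 0.66, 0.90 and 0.83 to -2.35, -2.49 and -3.39 (-3.54, SE 0.30, adjusted p = 1.72e-05).

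Germ cells use their own isozymes in place of the common ones. Of 20 measured members 12 rose and 1 fell, and 10 had passed the filter through the 60-day arrays alone. Of the 10 measured at both ages 2 rose and 1 fell, near the share over all genes, and the other 10 that rose were those measured through the 60-day arrays. With normexp 7 of the 20 rose and 0 fell. Ldhc, the lactate dehydrogenase of spermatocytes and sperm, was at background at 5 days (-5.89, -5.91 and -6.25) and stood at 6.49, 4.81 and 5.73 at 60 days. It was at least 832-fold higher (adjusted p = 5.40e-07), the largest bound of any gene with a current symbol that was above background on all arrays of one age and none of the other. Pgk2, the phosphoglycerate kinase of spermatids, was at least 16.5-fold higher, Gk2 at least 23.7-fold and the testis cytochrome c, Cyct, at least 39.4-fold. Gapdhs, the sperm form of its enzyme, was at least 2.87-fold higher (adjusted p = 0.00502).

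Meiotic and post-meiotic germ cell genes were among the largest rises, in cultures labelled as Sertoli cells. All 29 measured spermatocyte genes rose, 24 of which were measured through the 60-day arrays alone; 28 were well above background on all 60-day arrays and 4 on all 5-day arrays. With genes at their bound the median is 4.74, and with normexp 19 rose, 0 fell and the median was 1.94. Their summed signal was 4.40 to 7.04 times the 75th percentile at 5 days and 169 to 266 times at 60 days. Sycp3, a rod protein of the synaptonemal complex that pairs chromosomes in meiosis, stood at 4.17, 3.69 and 3.89 at 60 days and was at least 245-fold higher. Sycp1, its transverse filament, was at least 113-fold higher and Hormad1, which marks unpaired axes, at least 78.4-fold. Tex101, a surface protein of germ cells from spermatocytes on, was at least 190.5-fold higher (adjusted p of 5.40e-07, 6.77e-07, 8.28e-07 and 5.40e-07).

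Of 41 measured spermatid genes 36 rose and 0 fell, 30 of them measured through the 60-day arrays alone. With no filter, 36 of all 44 members on the array rose and 0 fell. The median was 3.72, or 3.05 with genes at their bound. With normexp 18 of the 41 rose and 0 fell, with a median of 0.89. The summed signal of this list was 23.9 to 35.2 times the 75th percentile at 5 days and 78.9 to 143 times at 60 days. Transition protein Tnp1, which replaces histones in the spermatid nucleus, stood at 1.97, 0.96 and 0.44 at 60 days and was at least 35.3-fold higher. Tnp2 was at least 11.8-fold higher. The protamines that follow them differed from each other. Prm1 stood at -2.13, -3.11 and -3.13 and rose to 1.62, 0.56 and -0.35 (3.40, SE 0.34, adjusted p = 4.38e-05), while Prm2 was near background at both ages, at -4.00, -4.62 and -5.69 and -3.46, -4.01 and -5.72 (adjusted p = 0.553). Smcp, of the mitochondrial capsule of sperm, was at least 62.5-fold higher. The tail proteins Odf1 and Tekt4 also rose, Odf1 by at least 13.0-fold and Tekt4 from -3.45, -3.94 and -3.09 to 2.80, 2.15 and 2.65 (6.03, SE 0.29, adjusted p = 1.29e-06).

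Spermatogonial genes were mixed, with 7 of 12 measured members higher and 2 lower. Of the 12, 3 had passed the filter through the 60-day arrays alone, and of the 9 measured at both ages 4 rose and 2 fell. The median was 2.19, and 0.38 over all 15 members on the array with no filter. Ddx4, a helicase of all germ cells, was at background at 5 days and at 2.43, 1.81 and 1.88 at 60 days, at least 66.6-fold higher (adjusted p = 8.67e-07). Taf7l, a transcription factor subunit of early germ cells, rose from -3.74, -4.19 and -4.82 to 3.23, 3.22 and 3.63 (7.61, SE 0.42, adjusted p = 1.93e-06). Uchl1, a ubiquitin hydrolase of spermatogonia, was already present at 5 days (2.26, 2.36 and 3.13) and rose to 5.58, 5.48 and 5.99 (3.1, SE 0.26, adjusted p = 1.63e-05). Gfra1, the receptor for Gdnf on stem cells, went the other way, from 2.24, 1.62 and 1.44 to -0.38, -1.31 and -1.35 (-2.78, SE 0.30, adjusted p = 6.30e-05). How many germ cells the 60-day cultures held was not measured here, and the part of their RNA in the other 60-day values was not tested.

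Many spermatid genes are switched on through cyclic AMP response elements, so the same upstream windows were searched for the full palindrome (letters TGACGTCA, which reads alike on both strands). It was found in 1.70% of all promoters, in 2.79% of 9392 promoters of tested genes, in 3.19% of genes that rose, in 1.53% of genes that fell and in 3.07% of those not called. Of 46 spermatid promoters 3 held it (6.52%), those of Tnp1, Izumo1 and Spag6, which all rose, though Spag6 stood at -0.039 and was not called with normexp. The windows of 2 of them are shown with the element in capitals, chr9:82044344-82044431 (minus strand) for Tnp1 and chr1:105227464-105227551 (plus strand) for Izumo1, the sperm protein of fusion with the egg.
Tnp1: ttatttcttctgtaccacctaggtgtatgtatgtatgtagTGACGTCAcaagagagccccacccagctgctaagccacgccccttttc
Izumo1: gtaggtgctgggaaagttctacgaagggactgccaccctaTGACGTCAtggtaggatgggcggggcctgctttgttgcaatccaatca
Izumo1 was well above background on no 5-day array and stood at -2.65, -2.46 and -2.37 at 60 days, at least 2.88-fold higher (adjusted p = 1.32e-05). The element lies 113 to 106 bases before the start of Tnp1 and 99 to 92 before that of Izumo1.

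The genes of fibrous extracellular matrix fell in nearly all cases, with the lowest median of the 30 lists. Of 43 measured members 39 fell and 1 rose (median -4.21), and 37 were measured at both ages, of which 33 fell. Cilp, a protein of cartilage matrix that is not on the list, stood at 6.93, 6.47 and 6.0 at 5 days and at -1.33, -3.55 and -3.32 at 60 days, the largest fall of genes measured on all 6 arrays (-9.20, SE 0.46, adjusted p = 1.43e-06; -9.81 without the 60-day array of replicate 1). Osteoglycin (Ogn) fell from 5.73, 5.10 and 5.57 to -1.30, -3.04 and -1.96 (-7.57, SE 0.38, adjusted p = 1.48e-06), and Mfap4, of elastic fibres, from 2.88, 3.35 and 4.14 to -3.98, -3.59 and -3.83 (-7.26, SE 0.35, adjusted p = 1.35e-06). Decorin (Dcn), which binds collagen fibrils, stood at 6.53, 6.16 and 5.75 and fell to 1.09, -0.05 and -0.86 (-6.09, SE 0.31, adjusted p = 1.54e-06). Col3a1 was saturated on all 3 arrays of 5 days (8.70, 7.54 and 7.79) and stood at 3.28, 1.23 and 1.61 at 60 days, so that its difference of -5.97 (SE 0.38) may understate the fall. Col1a1, of type I collagen, also fell. Its brightest probe stood at 7.10, 6.05 and 5.30 and at 5.62, 3.96 and 3.46, with an overlap between the ages (-1.81, SE 0.36, adjusted p = 0.00304). This was the smallest fall of its 3 probes, which ranged from -4.23 to -1.81 and were all called.

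Peritubular myoid cells and fibroblasts, which lay down this matrix, are the other cell type of the tubule wall, and their markers were lower at 60 days. Of 27 measured members 21 fell and 1 rose (median -3.02). All 27 were well above background on all 5-day arrays and 23 on all 60-day arrays. Their summed signal was 1373 to 2477 times the 75th percentile at 5 days and 371 to 888 times at 60 days. Pdgfra, the receptor for platelet-derived growth factor on such cells, stood at 6.45, 6.09 and 5.44 and fell to 0.29, -1.99 and -2.98 (-7.56, SE 0.51, adjusted p = 4.85e-06; -8.25 without replicate 1). Lumican (Lum) fell from 3.54, 3.26 and 2.82 to -4.82, -4.92 and -3.30 (-7.55, SE 0.46, adjusted p = 2.82e-06; -8.27 without replicate 3), and cardiac troponin T (Tnnt2) from 5.84, 5.59 and 4.94 to -0.75, -2.61 and -2.79 (-7.51, SE 0.40, adjusted p = 1.68e-06). The matrix and the peritubular lists share members. What part these cells have in the falls of matrix, IGF, receptor and immature Sertoli cell genes was not tested.

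Basement membrane and the enzymes that turn matrix over fell in part. Of 32 measured members 19 fell and 1 rose (median -1.30). Mmp2, a gelatinase, stood at 4.82, 4.97 and 5.91 and fell to 0.09, -0.39 and 0.06 (-5.31, SE 0.31, adjusted p = 2.60e-06). Lama2, a laminin chain of the outer layer, fell from 1.69, 1.57 and 2.26 to -2.91, -4.08 and -3.37 (-5.30, SE 0.33, adjusted p = 3.26e-06). Its 3 probes ranged from -5.30 to -2.97, and all were called. Lama1, the laminin chain that Sertoli cells make for the tubular basement membrane, was the member that rose, from -2.56, -2.54 and -0.94 to 0.38, 1.23 and 1.35 (3.00, SE 0.44, adjusted p = 4.46e-04). Adamts5, a proteoglycan-cleaving protease, was at -0.01, 0.56 and 0.52 at 5 days and well above background on no 60-day array, at least 31.3-fold lower (adjusted p = 1.69e-06).

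Markers of other cells of the testis went in several directions. Of 15 measured Leydig cell genes 4 rose (26.7%) and 6 fell (40.0%), where 21.5% and 23.5% of all genes did. Their summed signal was 72.3 to 98.3 at 5 days and 94.9 to 132 at 60 days. Insl3, a hormone of Leydig cells, stood at -2.03, -2.90 and -1.53 and -2.24, -2.73 and -2.55 with no called change (adjusted p = 0.411). Cyp17a1, an enzyme of androgen synthesis, fell from -0.56, -0.98 and -0.59 to -4.59, -4.39 and -4.76 (-3.87, SE 0.34, adjusted p = 2.02e-05). Hsd3b2 fell by 3.81 (adjusted p = 4.54e-05) and Star, which carries cholesterol into mitochondria, rose by 2.44 (adjusted p = 7.31e-05). The other of the 2 Hsd3b2 probes gave -2.17 and was also called. Of 17 measured macrophage genes 9 fell (52.9%) and 4 rose (23.5%), and their summed signal went from 10.4 to 17.4 at 5 days to 4.55 to 5.21 at 60 days. Of the 17, 4 had passed the filter through the 60-day arrays alone, and of the 12 measured at both ages 8 fell and 1 rose. Lyz2, a lysozyme of these cells, fell from 1.36, 0.22 and 1.55 to -2.38, -2.59 and -2.93 (-3.68, SE 0.38, adjusted p = 4.92e-05), and the scavenger receptor Cd163 of testicular macrophages was well above background on no array of either age. Cd74 and Adgre1 were among the 4 macrophage genes that rose. Endothelial genes fell for 7 of 12 measured members (58.3%) and rose for 2 (16.7%), with a summed signal of 16.9 to 19.2 and then of 4.52 to 8.98. Of the 8 endothelial genes measured at both ages 4 fell and 1 rose. Of 14 measured duct epithelium genes 6 fell (42.9%) and 2 rose (14.3%), with a median of 0.13 and a summed signal of 28.3 to 44.3 and then of 8.76 to 11.2. Of the 9 measured at both ages 4 fell and 1 rose. Krt7, a keratin of simple epithelia, stood at 4.17, 3.72 and 3.65 and fell to -2.18, -5.51 and -6.17 (-8.47, SE 0.63, adjusted p = 7.87e-06; -9.53 without replicate 1 and -7.80 without replicate 3). Muc1 and Krt19, another keratin, were the 2 that rose. The call of Krt19 was lost without replicate 2 or 3 (adjusted p = 0.137 and 0.191). Of 4 measured red cell genes 2 rose and 1 fell (2.5 to 3.82 and then 11.6 to 16.0). Alas2, the haem enzyme, rose from -0.74, -1.15 and 0.07 to 3.62, 3.45 and 3.94 (4.28, SE 0.28, adjusted p = 4.25e-06) and makes up most of the 60-day sum. Hbe1 also rose, Ahsp fell by 2.21 and Epb42 was not called (-1.82). With genes at their bound the median of this list was -0.42. The part of these cell types in the other results, such as that of macrophages in the interferon and complement genes below, was not tested.

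With the reported signal more interferon-induced genes rose than fell, with a smaller median difference on replicate 1 than on the others. Of 41 measured members 17 rose (41.5%) and 3 fell (7.3%), where 21.5% and 23.5% of all genes did (median 0.76). Of the 41, 9 had passed the filter through the 60-day arrays alone. On the spike-in scale 11 rose and 4 fell, and with normexp 4 rose and 4 fell (median 0.13). With no filter 15 of 45 members rose and 3 fell. The median on the slides of replicates 1 to 3 was 0.04, 1.49 and 1.13. Irf7, the factor that amplifies the interferon response, stood at 0.19, 0.18 and 0.30 at 5 days and at 1.94, 5.45 and 5.06 at 60 days. The 60-day array of replicate 1 lay more than 3 below the other two, and the rise was 3.93, SE 0.66, adjusted p = 0.00101, or 5.01 without replicate 1 and 3.25 without replicate 2. Oas1a, an antiviral RNA sensor, followed the same order, from -0.59, -0.95 and -0.88 to 1.81, 4.46 and 4.15 (4.28, SE 0.52, adjusted p = 1.47e-04; 5.22 without replicate 1). Mx2 rose from -3.55, -2.89 and -2.57 to -0.85, 1.29 and 1.39 (3.61, SE 0.42, adjusted p = 1.04e-04). Ccl5, a chemokine outside the list, was among the 12 largest rises, from -3.04, -3.68 and -3.85 to 1.19, 4.60 and 4.26 (6.87, SE 0.79, adjusted p = 9.87e-05; 8.20 without replicate 1 and 6.17 without replicate 2). Not all such genes moved. Ifit1 stood at -1.06, -1.67 and -0.98 and -1.69, -1.5 and -0.79, with no called change (adjusted p = 0.833). Cxcl10, an interferon-induced chemokine, fell, from 2.86, 1.55 and 1.35 to -3.21, -1.70 and -0.81 (-3.82, SE 0.63, adjusted p = 9.63e-04; -2.71 without replicate 1 and -4.66 without replicate 3).

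**Figure D5:**
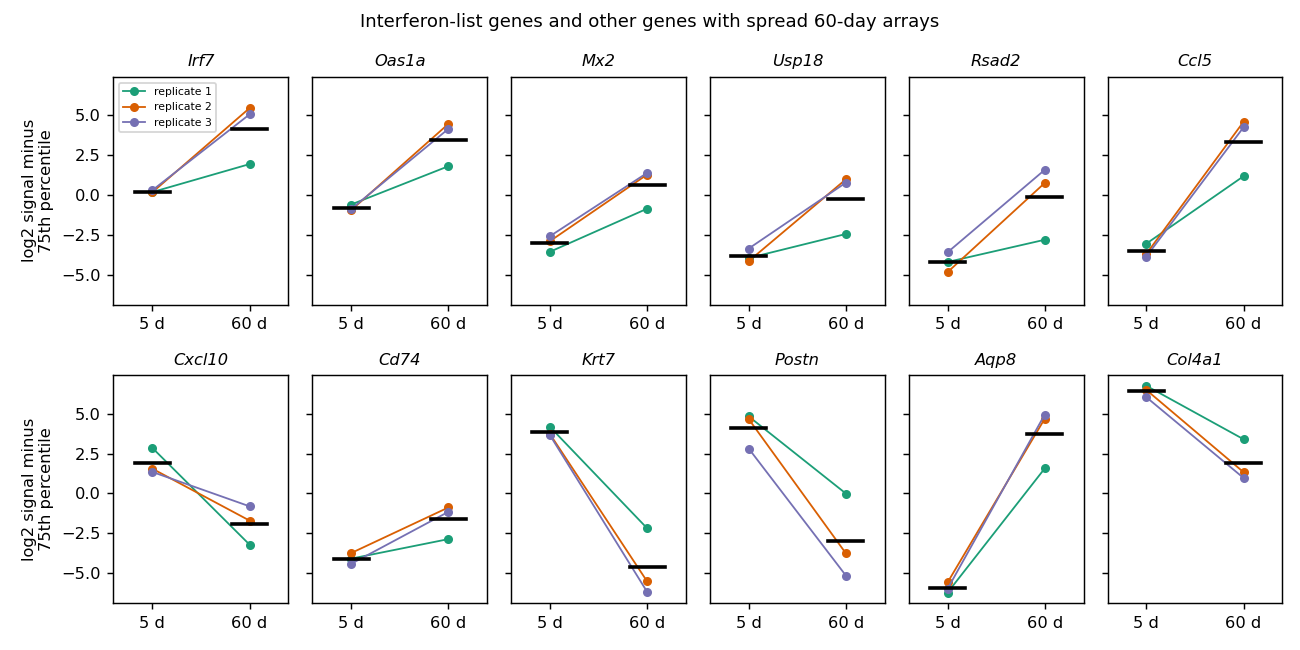
Levels (log2 signal minus the 75th percentile, y axis) of 12 genes whose 60-day arrays were spread, one line per replicate number, black bars for the means. The 60-day array of replicate 1 lies apart from the other two for Irf7 (levels of 1.94, 5.45 and 5.06 for replicates 1 to 3) and Ccl5, and on the other side for Krt7 and Postn.

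The core of the interferon response element (GAAA, any 2 bases and GAAA again, on either strand) was found in the upstream 250 bases of 20 of 37 promoters of this list (54.1%) and of 3.29% of all promoters. Of the 20 genes 7 rose, 1 fell, 11 were not called and 1 was not tested. Over the tested genes the core was in 2.71% of those that rose, 2.64% of those that fell and 2.84% of those not called. It is shown in capitals for 3 genes that rose by about 4, at chr1:205800043-205800132 (minus strand) for Irf7, chr6:48788218-48788307 (minus strand) for Rsad2 and chr12:41330391-41330465 (plus strand) for Oas1a, where a pair of matches overlaps.
Irf7: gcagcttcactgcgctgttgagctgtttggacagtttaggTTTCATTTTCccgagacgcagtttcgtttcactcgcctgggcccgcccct
Rsad2: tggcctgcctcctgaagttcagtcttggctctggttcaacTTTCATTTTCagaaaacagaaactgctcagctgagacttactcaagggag
Oas1a: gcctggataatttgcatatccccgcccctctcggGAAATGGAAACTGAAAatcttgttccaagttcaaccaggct
In Irf7 and Rsad2 the letters stand on the opposite strand. Rsad2, the antiviral enzyme viperin, stood at -4.19, -4.83 and -3.59 and at -2.80, 0.76 and 1.58 (4.05, SE 0.84, adjusted p = 0.00363), a difference of 5.38 without replicate 1 and 3.28 without replicate 2.

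Most complement and inflammatory genes fell. Of 35 measured members 22 fell and 3 rose (median -1.37), and of the 28 measured at both ages 18 fell and 2 rose. Cxcl12, a chemokine that holds stem cells in their niche, stood at 5.77, 5.32 and 4.13 and fell to -3.42, -4.18 and -2.15 (-8.32, SE 0.62, adjusted p = 7.71e-06; -9.35 without replicate 3 and -7.73 without replicate 2). Serping1, the inhibitor of the first complement step, fell from 6.93, 6.47 and 6.36 to 2.04, 1.22 and 0.71 (-5.26, SE 0.35, adjusted p = 4.18e-06). The other of its 2 probes gave -2.83 and was also called. Factor D (Cfd) fell by 4.31 (adjusted p = 1.46e-05).

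Of 43 measured paracrine factors and receptors 13 rose (30.2%) and 17 fell (39.5%), where 21.5% and 23.5% of all genes did (median -0.17). With normexp 7 rose and 7 fell. Dhh, the Sertoli cell signal to Leydig and peritubular cells, stood at 0.42, 0.89 and -0.03 and rose to 3.60, 3.62 and 2.95 (2.96, SE 0.30, adjusted p = 4.62e-05). Wnt4 rose from 2.34, 2.41 and 1.97 to 5.57, 5.61 and 4.93 (3.13, SE 0.28, adjusted p = 2.40e-05). Kitlg, the ligand for the Kit receptor of spermatogonia, rose by 1.92 (adjusted p = 0.00119; 0.0631 on the spike-in scale and 0.106 as the mean of its probes). Gdnf, the Sertoli cell factor for spermatogonial stem cells, stood at 0.43, 2.40 and 3.51 and 2.72, 3.78 and 2.66, with an overlap between the ages and no called change (adjusted p = 0.393). These values are of its brightest probe, with a difference of 0.94. The other of its 2 probes gave 2.33 and was called, so the result for Gdnf depends on the probe. Ret, the co-receptor for Gdnf, rose from -3.13, -3.02 and -4.14 to -0.48, -1.36 and -1.39 (2.36, SE 0.43, adjusted p = 0.00175). Fgfr2 fell from 4.71, 4.58 and 4.25 to -0.33, -1.82 and -2.45 (-6.04, SE 0.41, adjusted p = 4.85e-06) and Ednra, a receptor for endothelin, from 2.71, 4.50 and 4.15 to -2.12, -2.46 and -1.76 (-5.90, SE 0.39, adjusted p = 4.43e-06). A second probe gave a smaller called fall for both, -2.83 for Fgfr2 and -1.615 for Ednra, so the size depends on the probe.

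Of 20 measured carriers of iron, vitamins and metals 8 rose (40.0%) and 3 fell (15.0%), where 21.5% and 23.5% of all genes did. Cubn, an endocytic receptor for vitamin B carriers, was at background at 5 days and at -0.75, -0.93 and -0.36 at 60 days, at least 10.1-fold higher (adjusted p = 1.66e-06). Heph, an iron oxidase of the cell surface, stood at 3.00, 2.37 and 2.31 and fell to -2.87, -4.97 and -4.80 (-6.77, SE 0.42, adjusted p = 3.08e-06). Slc11a2, which takes iron across membranes, rose from 1.37, 1.46 and 0.96 to 3.37, 4.09 and 3.37 (2.35, SE 0.27, adjusted p = 1.11e-04). In the retinoid pathway 6 of 21 measured members rose (28.6%) and 5 fell (23.8%), near the 21.5% and 23.5% of all genes. Aldh1a1, which makes retinoic acid, rose from 0.95, 0.87 and 1.38 to 4.08, 4.85 and 5.02 (3.58, SE 0.29, adjusted p = 1.24e-05), and Cyp26a1, which degrades it, was at least 2.97-fold higher (adjusted p = 8.25e-06). Of the pair of cellular binding proteins, Crabp2 fell from 5.12, 4.66 and 4.35 to 1.21, 0.23 and 0.69 and Crabp1 rose from -4.00, -3.37 and -2.60 to -0.24, -0.28 and -0.33, differences of -4.00 (SE 0.32) and 3.04 (SE 0.35).

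Of 39 measured lysosomal and phagocytic genes 8 rose and 8 fell, 20.5% each way, which is near the shares over all genes, and on the spike-in scale 1 rose and 4 fell. Among those that rose was prosaposin (Psap), a main lysosomal and secreted Sertoli product, from 3.98, 4.24 and 4.28 to 6.13, 6.87 and 6.74 (2.41, SE 0.34, adjusted p = 4.00e-04). Of 36 measured genes of oxidative phosphorylation 3 rose (8.33%) and 1 fell (2.78%), with a median of 0.07, and on the spike-in scale or without replicate 3 none was called. In the thyroid hormone list 2 of 12 rose and 2 fell, 16.7% each way, where 21.5% and 23.5% of all genes did. Dio3, which inactivates thyroid hormone, fell from 4.06, 4.02 and 4.07 to 2.23, 2.45 and 2.58 (-1.63, SE 0.30, adjusted p = 0.00173). The other of its 2 probes gave -0.93 and was not called.

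Outside the lists, the largest changes among genes measured on all 6 arrays came from many kinds of gene. The 12 largest rises lay between 6.02 and 7.67, and the 12 largest falls between -6.80 and -9.20. Erhl1 led the rises, from -2.96, -3.29 and -2.90 to 5.02, 4.10 and 4.75 (7.67, SE 0.33, adjusted p = 8.67e-07). Dync1i1, an intermediate chain of cytoplasmic dynein, rose from -2.86, -3.52 and -3.57 to 4.27, 3.81 and 3.87 (7.30, SE 0.32, adjusted p = 8.97e-07). Gpat2, an acyltransferase of germ cells, rose from -2.10, -2.71 and -2.65 to 4.66, 3.82 and 3.99, and Emb, a basigin-like partner of lactate transporters, from -1.49, -2.08 and -1.35 to 4.31, 4.40 and 5.27. Spdya, a cell cycle regulator needed in meiosis, rose from -1.93, -2.32 and -2.37 to 4.05, 3.74 and 4.05. Among falls, Nr2f1, an orphan nuclear receptor, went from 5.61, 5.12 and 5.03 to -1.64, -2.85 and -1.67 (-7.30, SE 0.44, adjusted p = 2.75e-06) and glypican Gpc3 from 3.12, 3.06 and 3.29 to -4.46, -3.55 and -3.42 (-6.97, SE 0.30, adjusted p = 8.97e-07). The other of the 2 Nr2f1 probes gave -2.24 and was also called. The ages did not overlap in any of the genes of this paragraph, which follows from their choice by the size of the change. Of all genes 22.5% lay higher and 25.2% lower at 60 days without overlap.

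Among genes seen at one age only, Agtr2, the angiotensin receptor of fetal tissues, stood at 2.67, 2.65 and 2.54 at 5 days and was well above background on no 60-day array, at least 151-fold lower (adjusted p = 5.40e-07). The other of its 2 probes gave a difference of -4.88 and was also called. The kininogens Kng2 and Kng1, near-identical in sequence and so not told apart with certainty, were at least 139-fold and 104-fold lower. Spon1, a matrix protein, was at least 137-fold lower. On the other side Fam228a was at least 219.8-fold higher. Aqp8, a water channel of the adult Sertoli cell and germ cells, stood at 1.57, 4.69 and 4.95 at 60 days, lowest on replicate 1. It was at least 216-fold higher (adjusted p = 4.30e-06).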

How the data were processed

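RNA of each culture was labelled with Cy3 and hybridised to a rat 44k Agilent array, 1 sample an array. Per the file headers, the deposited scanner files hold spot intensity already background-corrected by Agilent Feature Extraction, version 9.5.3.1 on a G2505B scanner for replicate 1 and 10.5.1.1 on a G2505C for replicates 2 and 3. The authors also deposited a table of log2 values, which match the scanner values within 0.01 for 99.764% to 99.821% of probes of an array. The log2 processed signal was centred on the 75th percentile of each array over distinct non-control probes. Of 41012 probes 254 were left out for spot quality. A probe was kept if well above background on at least 2 of 3 arrays of an age, and the brightest probe stood for a gene, which left 22163 genes from 26256 probes, 11501 with a current RefSeq symbol. limma 3.58.1 in R 4.3.3 fitted age and replicate number on all 9 arrays (4 residual degrees of freedom, prior 5.18), the 12-day arrays adding only to the spread, and Benjamini-Hochberg adjusted p-values over all genes. The comparison was set beforehand to pair arrays by replicate number, which is the slide. Deviations from the mean of an age correlated at 0.308, 0.252 and 0.442 for same-numbered arrays, against -0.374 to 0.093 for other pairs. Such deviations cancel out over the arrays of an age, so the values of same-numbered and other pairs are not independent.

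A gene well above background on no array of an age is given as a bound: the bright age's mean against, per array, the higher of the lowest well-above-background signal and the gene's own. In simulated data on 22163 genes for this comparison 100 genes were changed by 1 and 100 by 2 on the log2 scale. Of these changes 2% and 81% were recovered. In the measured data 45.1% of genes were called, which makes the adjusted p less strict, so these shares do not carry over to them. Genes, lists and motifs were chosen with earlier results of these data known. Genes named by rule are the 12 with the largest rise and the 12 with the largest fall, the 8 with the largest bound in either direction, at most 6 from a list, and a fixed set. Those outside this rule, chosen after their values were seen, are Adcy6, Ccnb3, Cdkn1a, Cited1, Col1a1, Dhcr7, Dhh, Espn, F11r, Fdft1, Fdps, Gdnf, Ifit1, Izumo1, Jup, Kitlg, Lama1, Lhx2, Magea14, Mageb1, Nr5a1, Ocln, Pde4d, Pmvk, Rb1, Rpl10l1, Rpl3l, Spag6, Star, Top2a and Wnt4. Promoters are RefSeq windows of GRCr8, searched on both strands, also for other motifs whose matches are not given here. Some genes of the lists are not reported here. Alternatives to the scaling, background correction, filter, probe rule, block and arrays used are in the closing section. Figures were drawn with matplotlib 3.10.9.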

Additional observations from a re-analysis of the deposited data

How the results depend on the processing

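Against 9985 genes called, 4776 that rose and 5209 that fell, the spike-in scale gave 6135 called and 2353 that rose (38.4% of calls). Background correction by normexp, possible for the slides of replicates 1 and 3 only, gave 2958, 928 and 2030, against 7323 called with the reported signal on the same slides. It added 50 to every corrected intensity, which shrinks differences of dim genes. Of the 2958, 2806 were among the 9985 in the same direction and 1 in the opposite one. With normexp on these slides the calls of Fshr, Dmrt1, Gata1, Pde4b, Pde4d, Aldoc, Gapdhs, Izumo1, Mx2, Rsad2, Cyp17a1, Cyp26a1, Crabp1, Cubn, Magea14, Wt1, Gata4, Amh, Ldhb, Crem, Cdkn1a, Ocln, Rb1 and Rpl3l were lost. Of these Amh, Gata4, Ldhb, Crem and Rpl3l were also lost without replicate 2. Of further lists, normexp gave 2 macrophage, 2 endothelial, 9 complement, 11 basement membrane and 20 cell cycle genes that fell. Retinoid genes rose and fell in 2 and 3 cases and Leydig cell genes in 4 and 4. On the spike-in scale 20 cell cycle genes and 5 cycle inhibitors fell, 1 and 0 rose, and 5 carriers rose and 4 fell. Without replicate 2 or 3, 20 cell cycle genes fell. Keeping only genes well above background on all 6 arrays gave 2680 that rose. Leaving out replicate 1, 2 or 3 gave 7323 to 9025 called, and over all left-out replicates and arrays 3444 to 4686 rose and 3879 to 4696 fell. The replicate block belongs to the reported values, and no replicate block gave 7932 called, of which 7931 were shared. Of the genes named in the results, Wt1, Gata4 and Amh lost their call without it. The median, quantile and value-table scalings, a random block, the 6 arrays alone, no filter, other probe rules and a trended prior kept the counts within 1.5 times. Of the named genes that were called, Spag6 alone changed direction under these alternatives, to -0.039 with normexp, where it was not called. Some that were not called did, with Top2a at -0.34, Ldha at -0.32, Thra at -0.25 and Gapdh at -0.08 on the spike-in scale. The number of arrays and, for dim genes, the signal over background limit the precision.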

Other observations

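Gene families outside the lists, picked from their symbols after the values were seen and so given without a test, moved as follows. Among genes with a current symbol 24.4% rose and 21.3% fell. Of 21 measured Cfap genes, for proteins of cilia and flagella, 15 rose and 0 fell, and of 19 Spata genes, named for spermatogenesis, 17 rose and 0 fell. Of these, 9 and 12 had passed the filter through the 60-day arrays alone. All 10 measured beta protocadherins (Pcdhb), adhesion proteins whose near-identical sequences make single members uncertain, fell, with a median of -2.53, 5 of them measured through the 5-day arrays alone. Of 11 Adamts proteases 9 fell and 1 rose, and of 13 Mmp proteases 9 fell and 1 rose.

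Ribosomal protein genes were lower at 60 days by small steps that depended on the scaling. Of 57 Rpl genes 30 fell and 2 rose, against 13 and 3 after quantile normalization and 8 and 1 on the spike-in scale, with median differences of -0.87, -0.44 and -1.21. Of 43 Rps genes 19, 12 and 7 fell. The 2 Rpl genes that rose are paralogs of Rpl10 and Rpl3, Rpl10l1 by 2.40 (adjusted p = 1.70e-04) and Rpl3l by 1.37 (adjusted p = 0.0167; 0.265 on the spike-in scale, 0.0869 and 0.056 without replicate 2 or 3).

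On the X chromosome 27.0% of 810 tested genes rose and 27.2% fell. Genes that were well above background on no 5-day array and rose made up 12.96% of the genes tested there, against 5.96% to 11.04% on the other chromosomes. They include Ccnb3, a cyclin of meiosis (at least 124-fold higher), and Mageb1 and Magea14, of a gene family expressed in germ cells (at least 18.8-fold and 14.4-fold higher).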
